A study of Pyrus pyrifolia with 6 samples.

Results

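Malate and citrate are the main acids of pome fruit, and 4 genes that make them or carry them into the vacuole are described here in pulp of Akibae pear (Pyrus pyrifolia). They are a pair of tonoplast dicarboxylate transporter-like genes (LOC103943766 and LOC103942769), a phosphoenolpyruvate carboxylase-like gene (LOC103947929) and a mitochondrial citrate synthase gene (LOC103954922). They were taken by name from the 4291 genes for which the authors deposited values in every library. Fruit from trees in an orchard had received a boron application or was the control, labelled CK, and each group had 3 mRNA libraries from pulp. The sources used here do not give the form or dose of boron, the harvest stage, or what the control fruit received. Whether each library came from its own fruit or tree is not in the labels, so p-values here rest on a spread between libraries that may be technical.

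Phosphoenolpyruvate carboxylase adds bicarbonate to phosphoenolpyruvate in the cytosol and yields oxaloacetate, which malate dehydrogenase reduces to malate. Citrate synthase joins oxaloacetate with acetyl-CoA in the mitochondrion, the entry step of the citric acid cycle. Fruit cells store most of both acids in the vacuole, where the tonoplast dicarboxylate transporter, best studied in Arabidopsis, moves malate across the vacuolar membrane, and proton pumps of that membrane provide the gradient that draws the acids in.

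The listed genes held between 1914312 and 2056668 reads per library. Values are normalized counts, that is, reads divided by 1 size factor per library, and fold changes are boron over control. The 4 genes were selected on their fold changes in this contrast, and all genes in the table had been called different by the authors on the same libraries. The 4 genes are therefore described without a test, with log2 fold changes and standard errors (SE) from limma on log2(normalized count + 1). In bulk pulp, fewer cells of a type and less RNA per cell cannot be told apart. Libraries did not stand apart within their groups: the correlation of log2 values over listed genes ran from 0.965 to 0.972 within groups and from 0.697 to 0.711 between them, over genes chosen for differing.

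The transporter genes moved apart. LOC103943766 had 2491, 2327 and 2845 normalized counts in libraries 1 to 3 of boron fruit, against 417, 358 and 345 in those of control fruit. Every boron library lay far above every control library, and the library means were 2554 ± 265 and 373 ± 38.4 (SD, n = 3 each), a 6.85-fold higher level with boron (log2 fold change 2.77 ± 0.10, SE). This gene lies on the minus strand of scaffold NW_008988039.1 (390507 to 394405, in the coordinates of the deposited table), with a gene length of 1891 bases.

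LOC103942769, the other gene with the same description (transcript variant X2), had 1225, 1123 and 1154 normalized counts with boron, against 2629, 2653 and 3113 in control libraries. The groups did not overlap, in the opposite direction, and control library 3 was the highest of all. Means were 1168 ± 52.2 in boron and 2798 ± 273 in control libraries (SD, n = 3 each), a 2.40-fold lower level with boron (log2 fold change -1.26 ± 0.08, SE). It lies on the minus strand of scaffold NW_008989740.1 (8122 to 10328), has a gene length of 1444 bases and is the only listed gene on that scaffold. The deposited table assigns both genes to the Na_sulph_symp protein family, the sodium and sulfate symporter fold to which plant tonoplast dicarboxylate transporters belong. No other of the 4291 genes carries that assignment, but 2457 of them have no family assigned. How the authors' counting treated reads that match both copies is not known, which leaves the value of each copy uncertain.

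**Figure D1:**
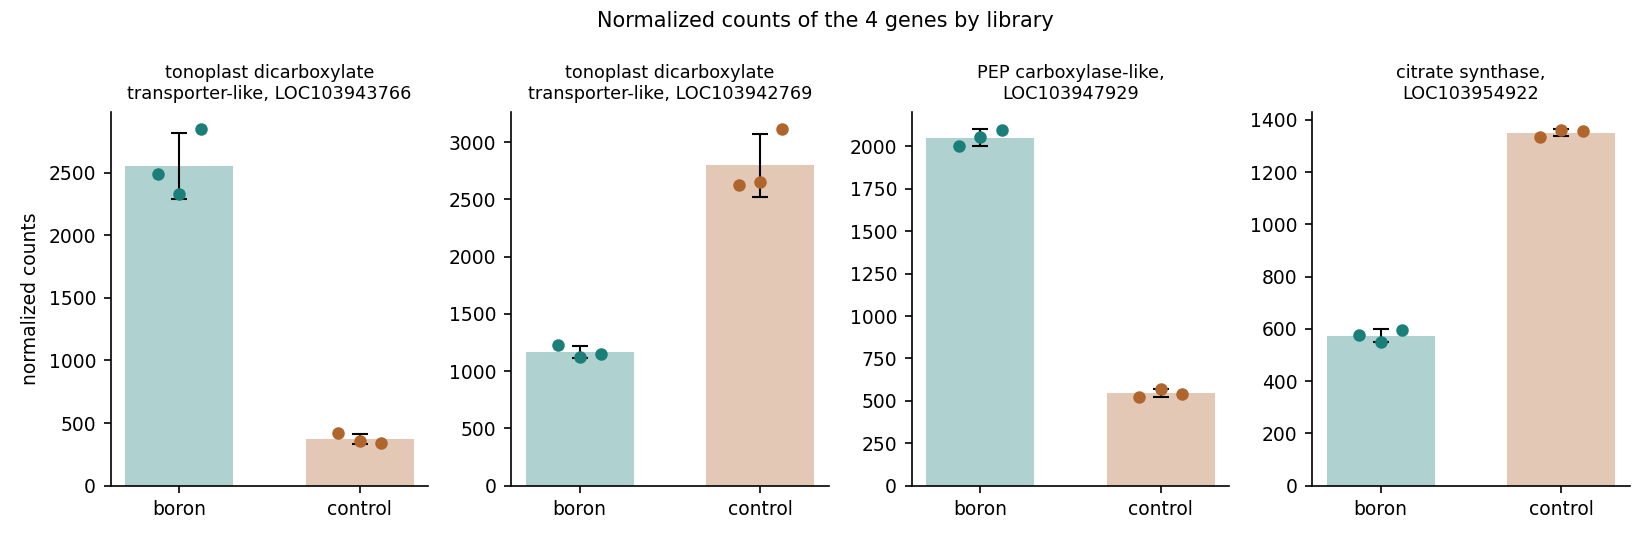
Normalized counts (vertical axes, each starting at 0) of the 4 genes in boron and control libraries. Points are single libraries, bars are means and error bars are the SD of 3 libraries. LOC103943766 and the phosphoenolpyruvate carboxylase-like (PEP carboxylase-like) gene are higher in every boron library, and LOC103942769 and citrate synthase are lower in every boron library.

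The pair exchanged places, both per kilobase of gene length and in undivided counts. Its share was taken up with the opposite directions of its genes already known, so a change in share follows from that choice. LOC103943766 made up 60.8, 61.3 and 65.3% of the pair's normalized counts per kilobase in boron libraries, against 10.8, 9.34 and 7.79% in control libraries. The share was 62.5% ± 2.47 with boron and 9.31% ± 1.5 in control (SD, n = 3 each). A share within a library does not change with any factor that multiplies the whole library, so the scaling of libraries has no part in it.

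The pair's sum was 2166, 2008 and 2304 normalized counts per kilobase in boron libraries, against 2041, 2026 and 2338 in control libraries, with means of 2159 ± 148 and 2135 ± 176 (SD, n = 3 each). The groups overlapped, and the ratio of their means was 1.01. Unlike the share, this sum depends on the scaling: with TMM factors computed over the listed genes, an alternative chosen after seeing the data, it was 1311 in boron and 3517 in control libraries.

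The enzymes at the entry to malate and citrate synthesis also differed in opposite directions. The PEP carboxylase-like gene LOC103947929 had 2001, 2054 and 2099 normalized counts with boron, against 524, 569 and 538 in control libraries. All boron values exceeded all control values, with means of 2051 ± 48.9 and 544 ± 23.4 (SD, n = 3 each), and the level with boron was 3.77-fold higher (log2 fold change 1.91 ± 0.07, SE). The gene lies on the minus strand of scaffold NW_008988090.1 (469413 to 475336) and has a length of 3337 bases.

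Mitochondrial citrate synthase, LOC103954922 (transcript variant X2), had 579, 548 and 598 normalized counts with boron, against 1335, 1360.2 and 1357 in control libraries. The groups again did not overlap, and the control libraries were nearly equal to each other. Means were 575 ± 25.0 with boron and 1351 ± 13.5 in control (SD, n = 3 each), a 2.35-fold lower level with boron (log2 fold change -1.23 ± 0.08, SE). It lies on the minus strand of scaffold NW_008988158.1 (640032 to 647129) and has a length of 1976 bases. Among the listed genes given a family, no other is assigned to Citrate_synt.

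Set against each other per kilobase within a library, PEP carboxylase-like mRNA was 2.05, 2.22 and 2.08 times that of citrate synthase in boron libraries, against 0.232, 0.248 and 0.235 times in control libraries. The mean ratio was 2.12 ± 0.0906 with boron and 0.238 ± 0.0084 in control (SD, n = 3 each), an 8.88-fold difference that also does not depend on the scaling of libraries. This ratio was chosen after the values were seen.

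**Figure D2:**
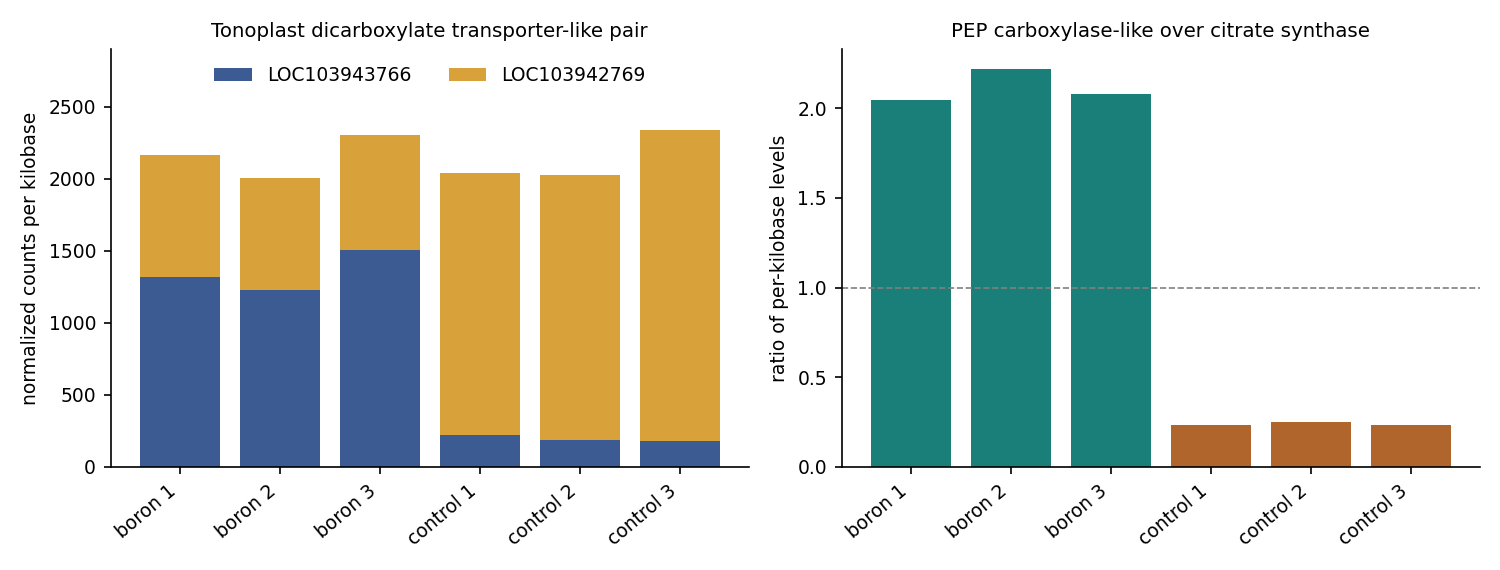
Left, normalized counts per kilobase of both tonoplast dicarboxylate transporter-like genes stacked for each library. Right, ratio of the per-kilobase level of the PEP carboxylase-like gene to that of citrate synthase in each library, with a dashed line at 1. With the authors' size factors the stacks are of like height in both groups (with TMM the sums are 1311 with boron and 3517 in control), while the lower segment, LOC103943766, is larger with boron, and the ratio is above 1 in the boron libraries and below 1 in the control libraries.

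The order of the 4 genes by normalized counts per kilobase differed between the groups. In boron libraries LOC103943766 came first with a level of 1351 ± 140.1, then LOC103942769 with 809 ± 36.1, the PEP carboxylase-like gene with 615 ± 14.7 and citrate synthase with 291 ± 12.6 (SD, n = 3). No neighbours in that order had overlapping values. In control libraries LOC103942769 led with a level of 1938 ± 189, followed by citrate synthase with 684 ± 6.85, LOC103943766 with 197 ± 20.3 and the PEP carboxylase-like gene with 163 ± 7.02 (SD, n = 3). The last 2 were the closest neighbours in either group, with a lowest value of 182 for LOC103943766 and a highest of 171 for the PEP carboxylase-like gene.

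The spread between libraries of a group, set against read counting, differed among the 4 genes. The SD of LOC103943766 was 5.37 times the SD expected from read counting in boron libraries and 1.95 times in control libraries. For LOC103942769 these multiples were 1.57 with boron and 5.05 in control, where library 3 stood highest. The SD of the PEP carboxylase-like gene was close to counting error, at 1.11 times with boron and 0.985 times in control. Citrate synthase had multiples of 1.07 with boron and 0.361 in control. With 3 libraries each, these SDs are themselves imprecise.

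Among all listed genes, the 4 were abundant and their fold changes were ordinary. Their mean normalized counts lay at the 92.1st to 96.3rd percentile of the 4291 genes. The groups did not overlap in any of the 4 genes, 2 higher and 2 lower, nor in 97.7% of all listed genes (72.0% higher and 25.7% lower), as follows from how these were selected, so nothing is read from that count. The log2 fold change of LOC103943766 was larger than that of 71.4% of the listed genes that were higher with boron, and that of the PEP carboxylase-like gene larger than 42.3% of them. LOC103942769 and citrate synthase exceeded in size only 30.0% and 27.8% of the genes that were lower. Their log2 fold changes were -1.26 and -1.23, and the smallest absolute log2 fold change in the authors' deposited table is 1.00.

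**Figure D3:**
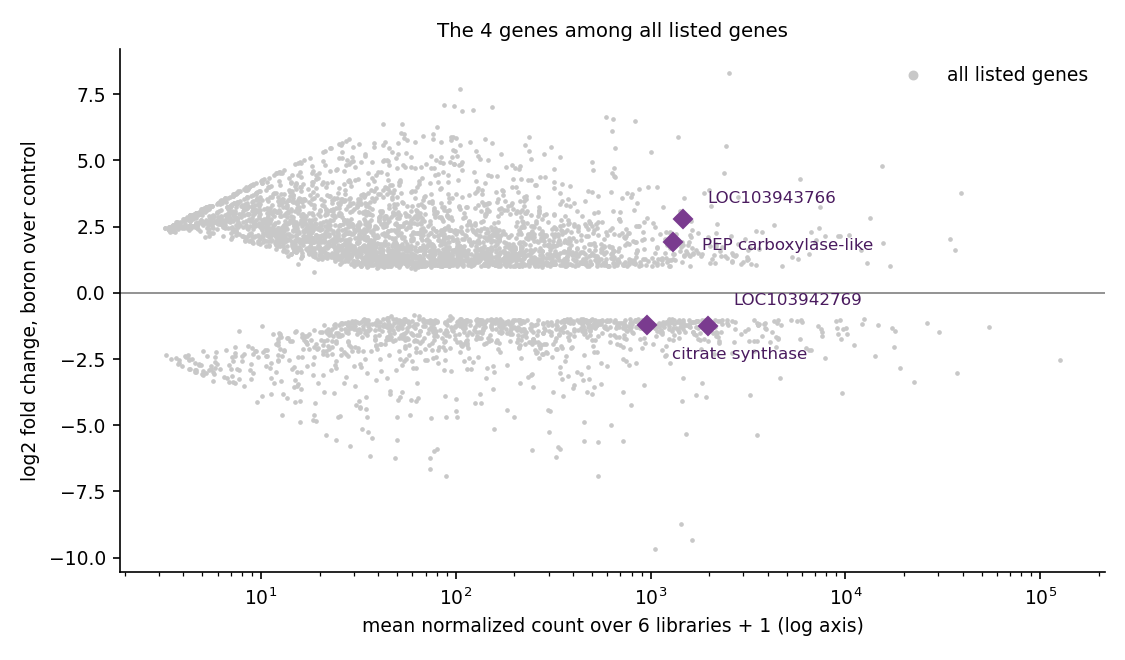
Log2 fold change of boron over control (vertical axis) against the mean normalized count over 6 libraries plus 1 (horizontal log axis) for all 4291 listed genes, grey, with the 4 genes as diamonds. The empty band around 0 is the authors' selection of genes, and the diamonds lie at high abundance, LOC103942769 and citrate synthase close to the edge of that band.

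A further deposited table gives 1 score for each of 42194 genes. It is the boron mean minus the control mean, divided by the summed SDs of both groups, where an SD below 0.2 of its mean is raised to that value. This formula rebuilt the scores of the 4070 listed genes with reads in both groups to within 6.1e-07. In the authors' deposited table of scores LOC103943766 has 3.73 and the PEP carboxylase-like gene 2.91, the 359th and 926th highest. LOC103942769 has -2.06 and citrate synthase -2.01, the 627th and 660th lowest. In all 4 genes the SD was at most 10.4% of the mean in either group, so every SD was raised to 0.2 of its mean. Their scores therefore restate the fold changes and hold nothing on the spread between libraries. Of the 42194 scores, 16512 are above 0, 14072 below 0 and 11610 at 0, so the wide table is closer to an even split than the listed genes are.

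The size of each fold change depended on the scaling of the libraries, but its direction did not. The median log2 fold change of all listed genes was 1.62 with the authors' size factors, and TMM factors over the listed genes shifted it by -1.40. With TMM, log2 fold changes were 1.33 for LOC103943766, 0.48 for the PEP carboxylase-like gene, -2.70 for LOC103942769 and -2.67 for citrate synthase. Relative to the median of all listed genes, they were 1.15, 0.30, -2.87 and -2.85 in the same gene order with the authors' factors, and 1.11, 0.26, -2.92 and -2.89 with TMM, where subtracting the median largely removes a factor per library. With quantile normalization, which is no such factor, they were 2.24, 1.43, -1.55 and -1.77.

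The other listed genes of malate and citrate metabolism were split between higher and lower with boron. They come from lists set on gene descriptions, and a test over all 4291 genes (limma with Benjamini-Hochberg adjustment, threshold 0.05) called 99.2% of the listed genes, 73.0% higher and 26.2% lower, which is the background for the counts that follow. Of 14 listed enzymes and their regulators, citrate synthase and the PEP carboxylase-like gene included, 6 were higher and 8 lower, with a median log2 fold change of -1.04, against 1.62 over all listed genes. Of the 12 other than those, 5 rose and 7 fell. With TMM, 2 were higher and 8 lower among the 14, against 1433 higher and 1241 lower over all 4291 listed genes. A gene that the authors did not call is not in these lists, so the counts say nothing of the rest of the pathway. For the same reason the p-values that follow set each difference against the spread of these libraries and are no independent evidence of it.

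Enzymes that use malate or citrate changed in both directions. NADP-dependent malic enzyme, which decarboxylates malate to pyruvate, had 1687, 1690.4 and 1774 normalized counts with boron, against 749.9, 668 and 661 in control libraries (LOC103943899, log2 fold change 1.31 ± 0.08, limma adjusted p = 9.11e-08). That rise was lost when libraries were scaled by TMM or DESeq2-type factors, where its log2 fold changes were -0.13 and -0.083. Those factors come from the listed genes only and assume that most of them do not differ. The loss therefore cannot decide whether this mRNA rose. Relative to the PEP carboxylase-like gene per kilobase, its mRNA was 1.33 ± 0.0195 times as abundant with boron and 2.04 ± 0.217 times in control (SD, n = 3 each), a ratio free of library scaling. A scarcer malic enzyme gene (LOC103957074) had 68.5 ± 7.32 against 26.4 ± 15.4 normalized counts in control (adjusted p = 0.00351, limma), and its call was lost with TMM, DESeq2-type and quantile scaling.

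NADP-dependent isocitrate dehydrogenase, which turns isocitrate, an isomer of citrate, into 2-oxoglutarate, fell to 799 ± 81.7 normalized counts with boron, against 2213 ± 24.3 in control libraries (LOC103926949, log2 fold change -1.47 ± 0.09, limma adjusted p = 6.49e-08). The alpha chain of ATP-citrate synthase, part of the cytosolic enzyme that splits citrate into acetyl-CoA and oxaloacetate, fell to 614 ± 27.1, against 1299 ± 79.7 in control (LOC103940765, log2 fold change -1.08 ± 0.08, limma adjusted p = 5.48e-07). Citrate synthase and these genes for citrate use were all lower with boron.

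Pyruvate dehydrogenase makes the acetyl-CoA that citrate synthase consumes, and its kinase switches it off by phosphorylation. All 3 listed genes similar to that kinase fell. LOC103944686 had 857 ± 8.89 against 1717 ± 56.4 normalized counts in control libraries, LOC103959091 had 426 ± 76.1 against 1200.2 ± 64.8, and LOC103950319 had 182 ± 55.9 against 569.6 ± 121, with limma adjusted p-values of at most 2.63e-05. The acetyltransferase gene of the chloroplast's own pyruvate dehydrogenase complex (component 4, LOC103947462) rose to 123 ± 5.25, against 13.3 ± 8.11 in control (limma adjusted p = 9.72e-06), and that of the mitochondrial complex (component 1-like, LOC103958435) had 17.4, 41.5 and 22.6 in boron libraries, against 57.8, 133 and 207 in control libraries, which differed widely among themselves (limma adjusted p = 0.000909).

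Scarce genes made up the rest. A gene known by its pyruvate phosphate dikinase domains (LOC103932123), of an enzyme type that interconverts pyruvate and phosphoenolpyruvate, had 73.2 ± 2.66 normalized counts in boron and 26.4 ± 13.2 in control libraries, a call lost with TMM, DESeq2-type and quantile scaling. Outside the rule for named genes, and so chosen after their values were seen, were a probable regulatory protein of that enzyme (LOC103941131), with 15.6 ± 7.79 with boron and 44.8 ± 8.88 in control, and a malate dehydrogenase-like gene (LOC103953311), with 15.3 ± 3.37 with boron and 3.08 ± 3.12 in control, where library 3 had no reads. The call of LOC103953311 was lost with TMM, DESeq2-type and quantile scaling (limma adjusted p = 0.191, 0.177 and 0.759).

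**Figure D4:**
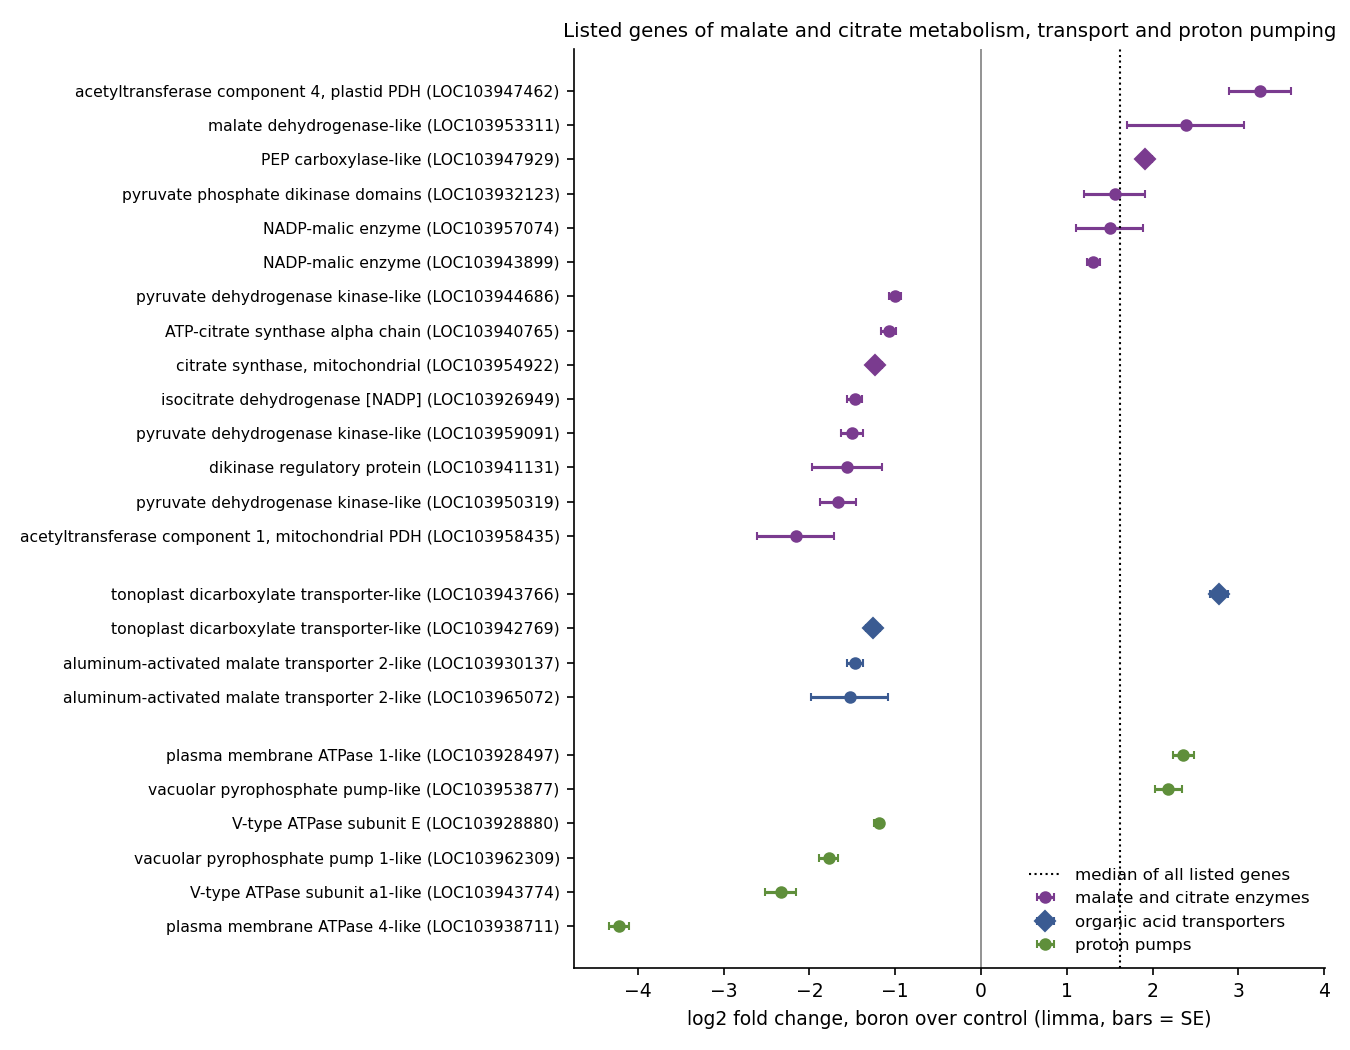
Log2 fold change of boron over control (horizontal axis, limma, bars are the SE) of the listed malate and citrate enzymes, organic acid transporters and proton pumps. Diamonds mark the 4 genes described here, circles the other genes, and the dotted line the median of all listed genes, 1.62. LOC103943766 is the only organic acid transporter on the right, and both listed V-type ATPase subunits are on the left.

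LOC103943766 was the only one of 4 listed organic acid transporters that was higher with boron. Besides the tonoplast pair, the list held a pair of genes similar to aluminum-activated malate transporter 2, of a family of malate-conducting anion channels, and both fell. The abundant one (LOC103930137) had 831, 967 and 839 normalized counts with boron, against 2228, 2447 and 2638 in control libraries (log2 fold change -1.47 ± 0.09, limma adjusted p = 9.56e-08). The scarce one (LOC103965072) had 12.2 ± 5.50 with boron and 35.5 ± 10.1 in control (limma adjusted p = 0.00667). Summed over the 4 transporters, normalized counts ran from 4433 to 4844 in boron and from 5298 to 6136 in control libraries. These sums use the authors' size factors, are not divided by gene length and depend on the scaling, as the tonoplast pair's sum does.

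Of 6 listed proton pump genes, 2 rose and 4 fell, with a median log2 fold change of -1.48. The most abundant was subunit E of the V-type ATPase, the rotary pump that acidifies the vacuole, which fell to 7402 ± 365 normalized counts with boron, against 16909.6 ± 676 in control libraries (LOC103928880, log2 fold change -1.19 ± 0.05, limma adjusted p = 1.07e-08). A V-type ATPase subunit a1-like gene (LOC103943774) fell to 152 ± 41.8, against 760.5 ± 109 in control (log2 fold change -2.34 ± 0.18, limma adjusted p = 6.06e-07). Its description does not say whether the protein works in the vacuolar membrane or in another.

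Both other kinds of pump were listed as pairs that moved apart, as the tonoplast transporters did. Of the vacuolar pumps driven by pyrophosphate, LOC103953877 rose to 404 ± 37.2 normalized counts with boron, against 88.5 ± 13.7 in control, and LOC103962309 fell to 233 ± 25.8, against 798 ± 44.4 (limma adjusted p = 3.36e-07 and 1.25e-07). Per kilobase, LOC103953877 made up 64.0% ± 4.56 of the pair with boron and 10.2% ± 1.75 in control (SD, n = 3 each). Of the plasma membrane ATPases, which pump protons out of the cell, LOC103928497 had 622 ± 55.2 with boron and 120.2 ± 7.26 in control, and LOC103938711 had 80.4 ± 11.1 with boron and 1507 ± 19.8 in control (limma adjusted p = 2.58e-08 and 4.78e-10). There LOC103928497 made up 88.8% ± 0.647 of the pair with boron and 7.52% ± 0.425 in control. These pairs were set together after their values were seen, each from a gene higher and a gene lower with boron. The gap in share therefore follows from that choice. Other listed genes of like description moved together: both aluminum-activated malate transporter 2-like genes and all pyruvate dehydrogenase kinase-like genes fell. Both malic enzyme genes rose with the authors' size factors.

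**Figure D5:**
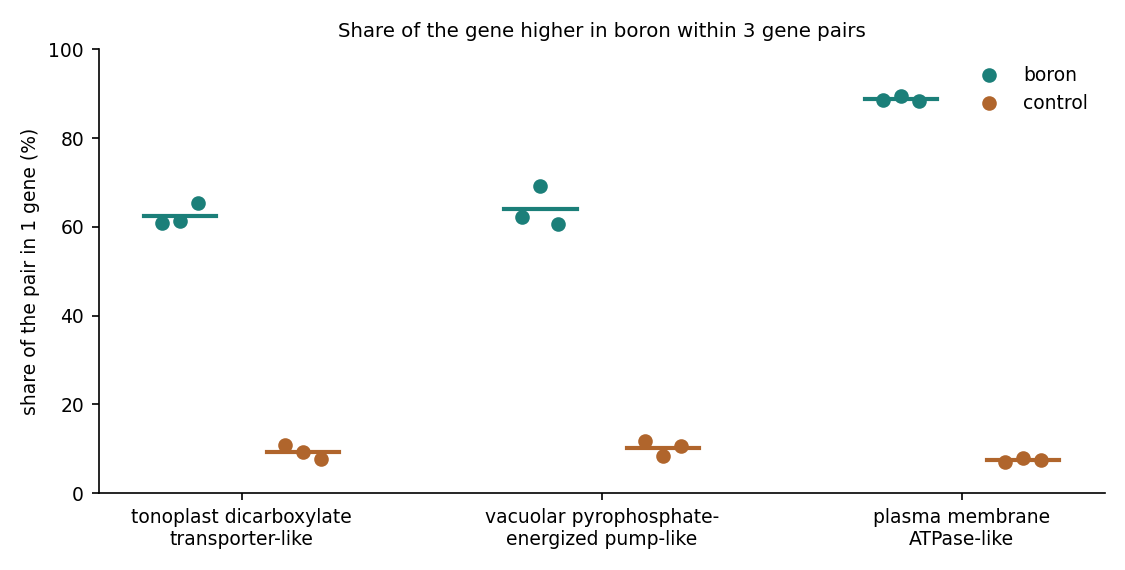
Share of the pair's normalized counts per kilobase (vertical axis, percent) that came from the gene higher with boron, for the tonoplast dicarboxylate transporter-like, pyrophosphate-driven pump and plasma membrane ATPase pairs. Points are single libraries and lines are means of 3 libraries. Boron libraries lie above 60% and control libraries below 12% in each pair, a direction fixed by how the pairs were chosen.

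With the authors' size factors, on which the near-equal sums of the transporter pair depend, the sums per kilobase of these other pairs were lower with boron. The pyrophosphate-driven pumps summed to 233 ± 5.62 with boron and 320.0 ± 14.3 in control, and the plasma membrane ATPases to 212 ± 19.8 with boron and 483 ± 6.32 in control (SD, n = 3 each).

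By the smallest root mean square difference of centred log2 profiles over the 6 libraries, the listed genes most like LOC103943766 were chloroplast phosphoribulokinase-like (LOC103938769, difference 0.060) and a gene similar to CP26, a chlorophyll-binding protein (LOC103956592, 0.090). Phosphoribulokinase belongs to the Calvin cycle and CP26 to the antenna of photosystem II. Their normalized counts were 101 ± 4.86 and 782 ± 64.8 with boron, against 14.5 ± 2.16 and 105 ± 19.6 in control. For LOC103942769 the closest were the transcription factor bHLH121 (LOC103938351, 0.047) and enolase (LOC103963431, 0.049), the glycolytic enzyme that makes phosphoenolpyruvate. Enolase had 8822 ± 165 normalized counts with boron and 20706 ± 1695 in control.

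The PEP carboxylase-like gene was closest to a receptor-like kinase HAIKU2 gene (LOC103928203, 0.034) and beta-galactosidase 5 (LOC103928364, 0.040). Citrate synthase was closest to subunit E of the V-type ATPase (LOC103928880, 0.036) and the desiccation protectant Lea14 homolog (LOC103931096, 0.037). Among the 4 genes themselves, LOC103942769 and citrate synthase differed by 0.086 and LOC103943766 and the PEP carboxylase-like gene by 0.45, while pairs across the directions differed by 1.57 to 2.02. These distances mostly reflect the size of the group difference, which all listed genes were chosen for.

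Markers of other tissues also differed between the groups. Over all listed genes the same test called 73.0% higher and 26.2% lower, which is the background for the marker counts. With so few markers, nothing is read from the counts alone. All marker directions and sums use the authors' size factors. TMM factors shifted the median log2 fold change of all listed genes by -1.40, and marker values with TMM are not given here. All 6 listed vascular markers (sieve element, phloem protein, laccase and fasciclin-like genes) were higher with boron, and their sum ran from 583 to 673 normalized counts in boron and from 144 to 163 in control libraries, with the fasciclin-like gene at 0 in every control library. Of 6 listed seed markers, 5 were higher and 1 lower, and their sums were 1905 to 2044 with boron and 2309 to 2590.1 in control. The lower sum with boron came from the 1 lower gene, legumin B-like (LOC103946296), with 931 ± 104 with boron and 2235 ± 167 in control. The only listed peel marker, a WAX2 domain gene, was lower, at 0 to 1.94 with boron and 27.9 to 43.7 in control. The part of these tissues in the values of the 4 genes was not tested.

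The 4 genes lie on different scaffolds, and position among listed genes showed little in common. Of the other listed genes on their scaffolds, 60 were higher and 15 lower around LOC103943766, 4 higher and 1 lower around the PEP carboxylase-like gene, and 12 higher and 4 lower around citrate synthase. Over all listed genes 3146 were higher and 1145 lower, a split near these, so nothing is read from the scaffold counts. The nearest listed neighbour of LOC103943766, a cysteine proteinase inhibitor 1-like gene (LOC103943585) 8378 bases away, had a log2 fold change of 2.12 ± 0.31 (SE). That of the PEP carboxylase-like gene, aspartate carbamoyltransferase 2 (LOC103947942) 254004 bases away, had -1.04 ± 0.17 (SE), the opposite direction. That of citrate synthase, an uncharacterized gene (LOC103954920) 6315 bases away, had -2.72 ± 0.44 (SE). No listed gene overlapped any of the 4.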

How the data were processed

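Messenger RNA of pear pulp was sequenced in 3 boron and 3 control libraries. Libraries were made with a NEBNext Ultra kit, per the labels' protocols, and HISAT2 is the only tool in the submitters' processing notes. The sources used here name no read counter, strand setting, genome build or statistical test. The deposited library values (signal) are gene counts scaled by a size factor for the library. Each of the 4291 values in a library was a whole multiple of a common step (tolerance 0.001 of a read, 100% whole), which gave back the reads. The deposited table also holds the authors' log2 fold changes, p-values (largest adjusted 0.0499), gene lengths and descriptions, and the authors' second table holds 1 score per gene.

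Fits used limma 3.58.1 (trend and robust, two-sided, pseudocount 1, R 4.3.3) on the 4291 listed genes, with no filter or covariate. Fold changes are on the log2(value + 1) scale. Alternatives changed the pseudocount, a filter on low values, the scaling or the test (edgeR 4.0.16 and DESeq2 1.42.0 on recovered reads), added the replicate block or left out 1 library. Named genes were the 4 genes, up to 12 genes of highest mean per pathway list, and the 2 described genes most like each of the 4. The members and lists were chosen with earlier results of these data known. Protein and promoter sequences were not analysed here.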

Additional observations from a re-analysis of the deposited data

How the results depend on the processing

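The direction of the log2 fold change of each of the 4 genes was the same under all 17 alternatives, while scaling moved its size, since these scalings assume that most of the selected genes do not differ. With DESeq2-type scaling the values were 1.38 (LOC103943766), 0.52 (LOC103947929), -2.65 (LOC103942769) and -2.62 (LOC103954922), with TMM 1.33, 0.48, -2.70 and -2.67, and with quantile normalization 2.61, 1.80, -1.18 and -1.40, in the same gene order. The number of malate and citrate enzymes called higher, 6 with the authors' factors, was 2 with TMM, 2 with DESeq2-type scaling, 3 with quantile normalization and 2 after a filter at 100 normalized counts on average, where fewer genes are tested. Over all listed genes, 1433, 1486 and 1522 were called higher with TMM, DESeq2-type and quantile scaling, and 1049 higher and 635 lower with that filter. The malic enzyme gene LOC103943899 turned to -0.13 with TMM and -0.083 with DESeq2-type scaling (limma adjusted p = 0.187 and 0.374). The pair's sum per kilobase was 1332 with boron and 3463 in control with DESeq2-type scaling, and 1311 and 3517 with TMM. Not divided by gene length, the sum was 3722 with boron and 3172 in control, and the share of LOC103943766 was 68.5% and 11.8%.

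Leaving out 1 library in turn kept log2 fold changes at 2.69 to 2.85 (LOC103943766), 1.89 to 1.95 (LOC103947929), -1.30 to -1.18 (LOC103942769) and -1.26 to -1.20 (LOC103954922), and changed no count of the 3 pathway lists. edgeR and DESeq2 on the recovered reads changed none of those counts either. Same-numbered libraries did not deviate together over the listed genes (correlations of deviations -0.013, 0.026 and -0.039). Those genes were chosen for the group contrast, so this check cannot decide whether the labels' numbers mark a pairing. With the replicate block, 3127 listed genes were higher and 1131 lower, and no call of a named gene changed. The labels do not say what the libraries of a group share.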
